A study of Homo sapiens with 2 samples.

Results

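The cells described here are cycling epithelial cells of human colon organoids, 85 of the 4898 barcodes in both libraries. They were chosen from measured values, with u standing for UMIs per 10000 UMIs of a barcode. A barcode had to hold at least 10000 UMIs, at most 20% mitochondrial UMIs, MALAT1 under 300 u, EPCAM at 2 u or more, the 3 collagens COL1A1, COL1A2 and COL3A1 under 5 u in sum, FABP2 plus RBP2 under 2 u, and the 4 endocrine genes CHGA, CHGB, MLN and GHRL under 2 u in sum. Within this epithelial gate of 806 CNT and 626 3CK barcodes, a cell counted as cycling when TOP2A, MKI67, CENPF, UBE2C, CDK1 and BIRC5 summed to 2 u or more. That left 43 cycling cells in CNT and 42 in 3CK, against 763 and 584 cells of the same gate under the threshold.

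The organoids model ulcerative colitis and derive from the human iPSC line 1383D6, a line of induced pluripotent stem cells in general use. Both libraries share the differentiation: Activin A, then FGF2, then Matrigel embedding with EGF, forskolin, the MEK inhibitor PD98059, the DNA methylation inhibitor 5-aza-2'-deoxycytidine and a compound given as A-83 (the label text stops there). CNT is the untreated library, and 3CK organoids were kept for 8 days with 3 cytokines: IFN-γ, TNF-α and IL-1β. Each group is 1 library from 1 line, made by dissociating organoids with trypsin and loading about 8300 cells on the 10x Genomics platform, so cells are not replicates and no test between groups is possible. All intervals below are 95% intervals that cover counting error only.

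Dividing cells copy their DNA in S phase and part it in mitosis. Cyclin and CDK complexes drive the passage through these phases, and CDK inhibitors of the CIP/KIP and INK4 families hold it back. E2F factors switch on the S-phase genes at the end of G1, and the MuvB complex with B-MYB and FOXM1 switches on the mitotic genes in G2. In the colon, division is kept to the lower crypt, and cells that leave it stop dividing as they mature. Interferon γ and TNF are known to slow or stop the division of many epithelial cells.

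The label was set against cycle and cell type markers. CCNA2, the S and G2 cyclin, which the choice did not use, stood at 42.4 CPM (UMIs per 1000000 UMIs of the summed cells) in CNT cycling cells against 1.25 CPM in CNT cells under the threshold. In 3CK the CCNA2 values were 63.9 and 1.62 CPM. EPCAM, whose level the gate sets from below, had 903 CPM in the CNT cycling cells and 723 CPM in those of 3CK. The keratin KRT18, which the gate does not use, was the most abundant of 12 epithelial markers, at 5033 and 10075 CPM. The whole list had medians of 102 u (CNT) and 192 u (3CK) in cycling cells, against 82.7 and 223 u in the other gated cells. Barcodes with EPCAM under 2 u, collagens at 5 u or more and cycle genes under 2 u had 53.7 and 104 u. CLDN3, a tight junction gene of the list, was lower in cycling than in other gated cells, with log2 ratios of -0.63 and -1.45. Markers of other cells were mixed. NANOG, SOX2, SOX10 and the goblet mucin MUC2 had 0 UMIs in the cycling cells of both libraries, and the leukocyte gene PTPRC had 5 UMIs in CNT and 0 in 3CK. Other members of the same lists were present. The secretory genes AGR2 and ZG16 had 1423 and 1108 CPM in CNT cycling cells, the neural tubulin TUBB3 had 229 CPM, and FCER1G, an Fc receptor chain of leukocytes, had 57.1 CPM. LIN28A, an RNA-binding protein of pluripotent and fetal cells, had 56.3 CPM in CNT and 39.04 CPM in 3CK. Of 8 measured pluripotency markers, 4 were 2-fold higher in cycling than in other cells of both libraries, beside 4.59% of 15409 genes at 1 CPM or more. In CNT alone 6 of the 8 were so, where the upper quartile of all genes was a log2 ratio of 0.43. The whole pluripotency list had a median of 1.18 u (0 to 4.97) in CNT and 0.802 u (0.0669 to 3.42) in 3CK cycling cells, against 0.588 and 0.647 u in the others. The part of other cell types in the results below was not tested. The list of 15 mesenchymal markers had a median of 15.5 u in CNT and 14.8 u in 3CK cycling cells, a level held down by the gate, which caps 3 of its genes. The other gated cells had 21.4 and 13.3 u. Of the 15 genes, 2 were 2-fold higher in the cycling cells of both libraries, beside 4.59% of all genes. The list of 8 smooth muscle markers had higher medians in cycling than in other gated cells, with overlapping ranges. They were 3.03 against 1.36 u in CNT and 1.56 against 0.757 u in 3CK. The list of 16 hepatic markers was high in the cycling cells, with a median of 652 u (11.1 to 2645) in CNT and 150 u (9.41 to 909) in 3CK. It was higher still in the other gated cells, at 1061 u in CNT and 301 u in 3CK. Within the list, the liver plasma protein TTR held 54854 CPM (CNT) and 9058 CPM (3CK) in cycling cells. The intestinal factor CDX2 stood at 56.0 and 46.9 CPM.

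The libraries held 105314879 UMIs in 3257 barcodes (CNT) and 94887438 UMIs in 1641 barcodes (3CK), and they shared 0 barcodes. The cycling cells summed to 3800803 UMIs in CNT and 4431441 in 3CK, so that 3 UMIs, the floor used for a gene at 0, were worth 0.789 and 0.677 CPM. Cycling cells were a little deeper than the rest of the gate, at a median of 78768 UMIs against 70848 in CNT and 112334 against 97027.5 in 3CK. The 3CK cells were deeper than the CNT cells in both groups. Of 52 CNT and 16 3CK barcodes with the highest doublet scores, 0 and 1 were cycling cells.

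Promoter words are shown first for the genes that set these cells apart and for those that differed most between libraries. The cell cycle homology region (CHR), read here as TTTGAA or TTCGAA, is the element through which MuvB complexes bind mitotic genes, often beside a CCAAT box. E2F sites were read as TTTGGCGC, TTTGCCGC, TTTCGCGC or TTTCCCGC. The core of the interferon-stimulated response element (ISRE) was read as GAAANNGAA. All words were searched on both strands of RefSeq promoter windows (GRCh38.p14), 250 bases before to 50 bases after each gene start.

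CHR words stood in 48 of 70 matched promoters of the mitotic lists (68.6%) and in 5 of 58 of the S-phase lists (8.62%), against 16.6% of all 27305 promoters. E2F words showed the opposite split, with 26 of 58 S-phase promoters (44.8%) and 4 of 70 mitotic promoters (5.71%), against 3.33% of all. The ISRE core stood in 16 of 28 promoters of the IFN-γ response list (57.1%) and in 67 of the 264 matched genes that were 2-fold higher in 3CK cycling cells (25.4%), against 8.29% of all. CCAAT boxes stood in 74.3% of mitotic, 55.2% of S-phase and 35.7% of all promoters, and a CHR together with a CCAAT box in 57.1% of mitotic and 6.58% of all. A CHR word ends in GAA and can share those bases with an ISRE core, and a match describes letters only.

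Among list genes of at least 50 CPM in both libraries, the mitotic windows are those of the 3 with the largest cycling ratios whose last 100 bases before the start hold a CHR. The choice of windows to print, here and below, left out the genes of a chromosome. PRC1, the cross-linker of the central spindle, lies at chr15:90994536-90994635 on the minus strand; CDC20, an activator of the anaphase-promoting complex, at chr1:43358881-43358980 on the plus strand; and CKS2, a CDK subunit, at chr9:89311095-89311194 on the plus strand. Capitals mark CHR words and CCAAT boxes, and the CHR words begin 20, 65 and 29 bases before the start.
PRC1: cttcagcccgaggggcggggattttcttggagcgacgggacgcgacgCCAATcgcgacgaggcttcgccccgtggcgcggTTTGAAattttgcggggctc
CDC20: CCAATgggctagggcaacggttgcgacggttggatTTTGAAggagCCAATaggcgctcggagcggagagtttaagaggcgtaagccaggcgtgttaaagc
CKS2: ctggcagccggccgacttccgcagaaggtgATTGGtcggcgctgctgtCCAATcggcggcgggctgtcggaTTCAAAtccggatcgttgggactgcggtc

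The S-phase windows were picked the same way, from genes of at least 50 CPM, for an E2F word. CDT1, which loads the replicative helicase, lies at chr16:88803689-88803788 on the plus strand; TYMS, thymidylate synthase, at chr18:657553-657652 on the plus strand; and MCM7, a subunit of that helicase, at chr7:100101398-100101497 on the minus strand. Capitals mark E2F words and CCAAT boxes, with the E2F words beginning 35, 39 and 9 bases before the start.
CDT1: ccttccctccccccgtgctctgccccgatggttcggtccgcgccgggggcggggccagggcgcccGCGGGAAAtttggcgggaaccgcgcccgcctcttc
TYMS: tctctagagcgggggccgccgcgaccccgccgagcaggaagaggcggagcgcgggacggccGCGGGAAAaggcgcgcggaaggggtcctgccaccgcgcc
MCM7: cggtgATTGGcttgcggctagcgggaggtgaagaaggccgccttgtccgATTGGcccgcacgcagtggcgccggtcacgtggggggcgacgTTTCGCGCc

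The cytokine windows are the last 240 bases before the start of 3 genes. Among the genes searched, these had the largest ratios of 3CK to CNT and an ISRE core there. CXCL10, a chemokine for T cells, lies at chr4:76023498-76023737 on the minus strand; GBP1, a guanylate-binding GTPase, at chr1:89065209-89065448 on the minus strand; and HLA-F, a non-classical MHC class I gene, at chr6:29723194-29723433 on the plus strand. Capitals mark the ISRE core, which begins 221, 126 and 155 bases before the start.
CXCL10: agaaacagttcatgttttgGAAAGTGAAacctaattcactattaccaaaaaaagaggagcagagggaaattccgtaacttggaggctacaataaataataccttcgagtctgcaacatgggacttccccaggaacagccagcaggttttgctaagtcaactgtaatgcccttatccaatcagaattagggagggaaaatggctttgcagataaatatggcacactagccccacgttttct
GBP1: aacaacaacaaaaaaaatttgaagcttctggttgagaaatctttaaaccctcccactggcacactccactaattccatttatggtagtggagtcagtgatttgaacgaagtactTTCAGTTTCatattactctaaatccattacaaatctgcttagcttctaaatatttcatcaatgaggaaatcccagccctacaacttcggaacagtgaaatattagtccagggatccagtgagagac
HLA-F: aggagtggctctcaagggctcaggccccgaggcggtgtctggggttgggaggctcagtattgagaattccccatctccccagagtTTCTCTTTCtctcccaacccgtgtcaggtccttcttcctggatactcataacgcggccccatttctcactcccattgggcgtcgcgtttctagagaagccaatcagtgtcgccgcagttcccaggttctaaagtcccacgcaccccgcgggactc

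The share of cycling cells in the epithelial gate was 5.33% in CNT (43 of 806, Clopper-Pearson interval 3.89 to 7.12%) and 6.71% in 3CK (42 of 626, 4.88 to 8.96%). The difference of 1.37 points had a Newcombe interval from -1.09 to 3.99 points, so a change in the share was not detectable at this number of cells. With every barcode thinned to 10000 UMIs the shares were 5.94% and 6.84%, 0.90 points apart (-1.67 to 3.60).

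The share differed by depth and by TTR level. Among cells of 10000 to 40000 UMIs, 3 of 138 CNT and 7 of 68 3CK cells were cycling, a difference of 8.12 points (1.53 to 17.7). In the 3 deeper ranges the difference ran from -3.70 to 1.95 points, and each interval included 0. By TTR level, cells of 10 to 100 u were cycling in 10 of 67 (14.9%) in CNT and 30 of 236 (12.7%) in 3CK. Cells of 100 to 1000 u were cycling in 24 of 543 (4.42%) and 9 of 338 (2.66%). At 1000 u or more the counts were 7 of 180 (3.89%) and 0 of 12, a count of 0 that allows a share of up to 25% (3 counts of the total). Below 10 u they were 2 of 16 and 3 of 40. In every TTR range the 3CK share was the lower of the pair, yet each interval of the difference included 0, and TTR itself was lower in 3CK, so the ranges do not hold like cells. Whether depth or the TTR level shaped the pooled difference was not tested.

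The threshold left cells close to it on both sides. Between 2 and 3 u lay 7 of 43 CNT and 12 of 42 3CK cycling cells, and between 1 and 2 u lay 13 and 11 cells under the threshold. The lowest cycling cells had 2.02, 2.13 and 2.29 u of the 6 cycle genes in CNT and 2.02, 2.04 and 2.06 u in 3CK. The highest cells under it had 1.68, 1.59 and 1.58 u in CNT and 1.99, 1.99 and 1.97 u in 3CK. Of the cells under the threshold, 566 of 763 (74.2%) in CNT and 405 of 584 (69.3%) in 3CK had 0 UMIs of the 6 genes.

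**Figure D1:**
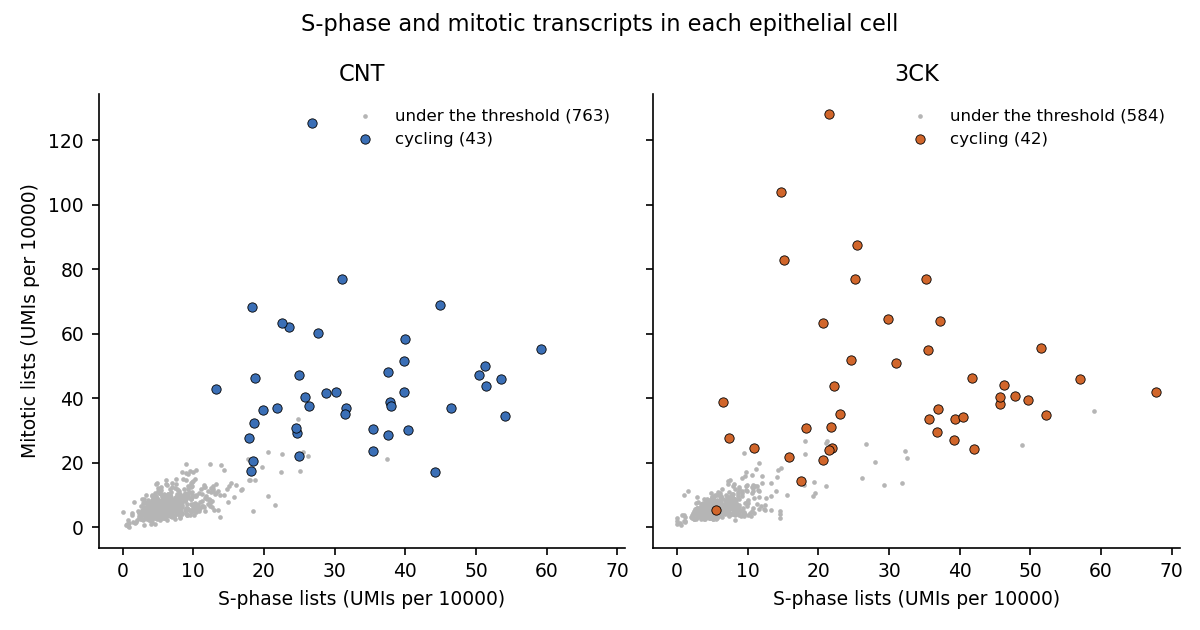
Each point is 1 epithelial cell, with UMIs per 10000 of 72 S-phase list genes on the x axis and of 81 mitotic list genes on the y axis (the 6 genes of the choice left out), CNT on the left and 3CK on the right. Cycling cells are large coloured points and cells under the threshold small grey points; the cycling cells spread over both axes, with medians of 31.1 and 40.2 u in CNT and 30.5 and 39.1 u in 3CK.

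S-phase and mitotic transcripts had higher medians in the cycling cells than in the rest, with overlapping ranges, as the plot of S-phase against mitotic UMIs shows. The S-phase lists had a median of 31.1 u (13.2 to 59.2) in CNT cycling cells and 5.84 u (0 to 37.4) in CNT cells under the threshold. In 3CK the S-phase medians were 30.5 u (5.48 to 67.7) and 5.66 u (0 to 59.04). The mitotic lists had medians of 40.2 u (17.01 to 125) and 5.90 u (0 to 33.5) in CNT, and 39.1 u (5.48 to 128) and 5.93 u (0.608 to 36.1) in 3CK. The cycling cells of both libraries overlapped on both axes. The lowest value on both axes, 5.48 u, belonged to the shallowest 3CK cycling cell, with 10948 UMIs.

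The mix of phases was not resolved between the libraries. At 10000 UMIs per cell, 13 of 43 CNT cells (30.2%) and 10 of 42 3CK cells (23.8%) held more S-phase than mitotic UMIs. The difference was -6.42 points (-24.5 to 12.3), and at full depth it was 3.21 points (-16.7 to 22.8), and at a cycle threshold of 4 u it was 20.3 points, so its sign depended on these settings. Few cells under the threshold reached the cycling median: for S-phase UMIs 2 of 763 in CNT (0.262%) and 8 of 584 in 3CK (1.37%), and for mitotic UMIs 0 and 1. The count of 0 allows a share of up to 0.393% by the same limit of 3 counts.

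Against the other cells of the gate, 80 of 2790 genes of at least 50 CPM (2.87%) were 2-fold higher in the cycling cells of both libraries and 1 (0.0358%) was 2-fold lower. The choice of cells by 6 cycle genes fixes the direction of this contrast, so the values describe the cells. Of the 80 genes, 52 belong to the lists of cycle genes and 28 to none of them. The licensing list, whose proteins prepare origins for replication, was 2-fold higher in both libraries in 26 of 26 genes, beside 4.59% of 15409 genes at 1 CPM or more (0.896% were 2-fold lower in both). The counts were 42 of 46 for DNA synthesis and repair, 30 of 32 for mitotic regulators, 46 of 49 for kinetochore, spindle and cytokinesis, 25 of 33 for condensin, cohesin and chromatin, and 16 of 26 measured replication-dependent histones. The histone transcripts mostly lack poly(A) tails, so a poly(A)-primed library records only part of them.

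Among S-phase genes of at least 50 CPM in both libraries, those named here had high ratios, and some genes of lower level had larger ones than several of them. RRM2, the ribonucleotide reductase subunit made in S phase, stood at 116 CPM in CNT cycling cells and 1.92 CPM in the rest, a log2 ratio of 5.92. In 3CK it stood at 82.4 and 2.17 CPM, a log2 ratio of 5.25. PCLAF, the PCNA-associated factor, had log2 ratios of 4.36 in CNT and 4.08 in 3CK, and CLSPN, the checkpoint mediator claspin, 3.30 and 3.97. RAD51AP1, a recombination factor, had 4.50 and 3.87. PCNA, the sliding clamp, had smaller ratios of 2.14 and 2.03, and stood at 27.0 and 24.7 CPM in the cells under the threshold. TYMS was also high, yet its overlapping antisense gene TYMSOS was among the 80 genes, and their reads may be split between them.

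The mitotic genes named here also passed 50 CPM in both libraries, and genes of lower level reached larger ratios. NUSAP1, which bundles spindle microtubules, stood at 79.5 against 3.21 CPM in CNT and 81.9 against 2.46 CPM in 3CK, log2 ratios of 4.63 and 5.06. PTTG1, the securin that holds separase, had log2 ratios of 4.29 and 4.43. MAD2L1, a spindle checkpoint protein, had 4.17 and 3.78, and PRC1 had 4.15 and 4.72. CCNB1, the mitotic cyclin B1, had 94.5 CPM in the CNT cycling cells and 161 CPM in those of 3CK, with log2 ratios of 3.23 and 3.73 against the rest. FOXM1, the factor that drives mitotic genes, had ratios of 4.90 and 4.70, and MYBL2, which encodes B-MYB, 1.85 and 3.89. The low MYBL2 ratio in CNT goes with 51.2 CPM in CNT cells under the threshold, against 7.90 CPM in those of 3CK.

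The genes lowest in cycling cells included an inhibitor of division and genes of mature epithelium. CDKN1C, which encodes the CDK inhibitor p57, was the 1 gene of at least 50 CPM that was 2-fold lower in both libraries. It stood at 283 against 620 CPM in CNT and at 38.6 against 117 CPM in 3CK, log2 ratios of -1.13 and -1.61. The apolipoproteins APOC2 and APOA4 had ratios of -0.92 and -0.81 in CNT and -1.002 and -1.15 in 3CK. SELENOP, the selenium carrier of plasma, had -0.81 and -1.58. MXD4, which opposes MYC at its targets, had -0.84 and -0.82, and BMP2, a ligand that limits crypt division, -0.93 and -0.80. The hepatic list had a median log2 ratio of -0.43 in CNT and -0.65 in 3CK over its 16 genes, and the enterocyte list -0.88 and -0.83, beside 0.05 and 0.10 for all genes.

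**Figure D2:**
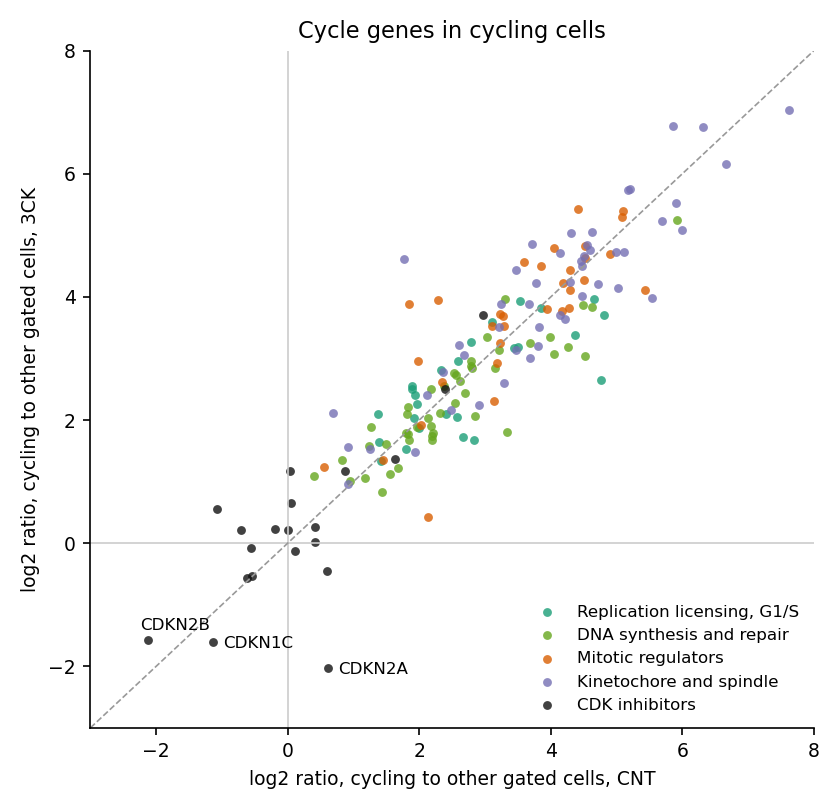
Each point is a gene of 1 list, placed by its log2 ratio of CPM in cycling cells to other gated cells in CNT (x axis) and in 3CK (y axis); the dashed line marks equal ratios. Genes of the S-phase and mitotic lists lie above 0 on both axes, and CDKN1C (-1.13, -1.61), CDKN2B (-2.12, -1.57) and CDKN2A (0.61, -2.02) are labelled.

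In most cycle lists few genes differed 2-fold between the libraries. In the comparison of 3CK with CNT within cycling cells, which the choice did not use, 11.1% of 17437 genes at 1 CPM or more were 2-fold higher. Another 15.8% were 2-fold lower, and the median log2 ratio was -0.02. At 50 CPM or more, 9.76% of genes were higher and 5.42% lower. Of the 26 licensing genes and the 46 DNA synthesis genes 0 passed 2-fold in either direction, with median log2 ratios of -0.06 and 0.03. Of 32 mitotic regulators 2 were 2-fold higher, with a median of 0.18. The first was CDC25B, a phosphatase that activates CDK1, at 21.0 CPM in CNT and 63.6 in 3CK (log2 1.6). Its ratio was larger in the cells under the threshold, at 4.81 and 47.6 CPM (3.3). The other was AURKA, the centrosome kinase, at 37.4 and 88.9 CPM (1.25), against 9.50 and 11.4 CPM in the cells under the threshold (0.26). Of 49 kinetochore and spindle genes 1 was 2-fold higher, the abscission protein CEP55 (log2 1.31, interval 0.93 to 1.71), and the median was 0.15. Of the 33 chromatin genes 0 passed 2-fold, with a median of 0.11. Of 26 replication-dependent histones 3 were 2-fold higher and 4 lower, shares near those of all genes (11.1% and 15.8%). Their median was -0.32 (-0.018 without the highest cells), and several were at few UMIs. The p53 target list gave 1 of 23 genes 2-fold higher, SESN2, a stress-induced sestrin (log2 1.51), and a median of 0.07 (0.27 without the highest cells).

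**Figure D3:**
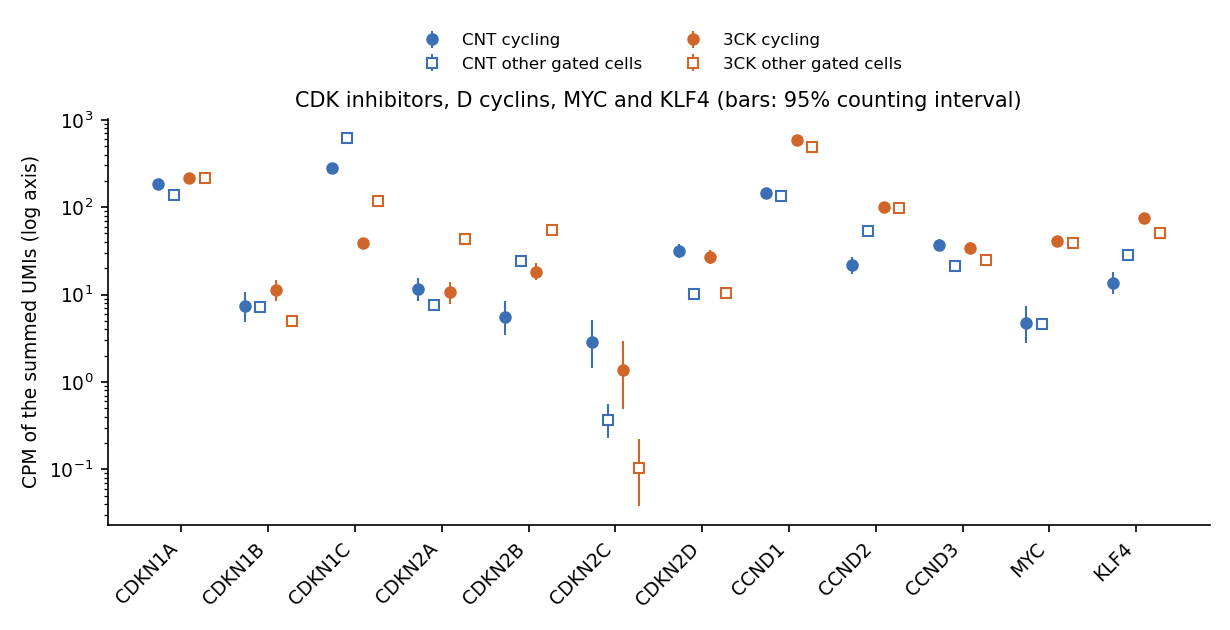
CPM of the summed UMIs (log axis) for CDK inhibitors, D cyclins, MYC and KLF4 in 4 groups of cells, with circles for cycling cells, squares for other gated cells, blue for CNT and orange for 3CK; bars are 95% Poisson counting intervals. CDKN2A differs between 3CK cycling cells (10.6 CPM) and other 3CK cells (43.0 CPM), while CCND1 is high in both 3CK groups (589 and 490 CPM).

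Of 18 measured genes of entry into the cycle 3 were 2-fold higher and 3 lower, shares near those of all genes (11.1% and 15.8%). CCND1, the cyclin D1 that opens G1, had 147 CPM in the cycling cells of CNT and 589 CPM in those of 3CK, a log2 ratio of 2.00 (1.87 to 2.14). For CCND1 the cells under the threshold had 133 and 490 CPM, a ratio of 1.88. CCND2 stood at 21.6 and 99.7 CPM in cycling cells, a ratio of 2.21 (1.87 to 2.57), and at 53.9 and 97.0 CPM in the others, a ratio of 0.85. MYC, a transcription factor of cell growth, stood at 4.74 and 40.8 CPM in cycling cells (log2 3.11) and at 4.60 and 39.2 CPM in the others (3.09). CCND3 differed little, at 37.1 and 34.1 CPM, as did CDK4 at 85.2 and 81.2 CPM and CDK6 at 49.5 and 51.5 CPM. SKP2, the ubiquitin ligase subunit that clears p27, was lower, at 35.8 and 15.3 CPM (log2 -1.22). The list had a median of -0.02 (0.076 without the highest cells).

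Of 20 genes of inhibitors and pocket proteins 4 were 2-fold higher, 3 were 2-fold lower, beside 11.1% and 15.8% of all genes, and the median log2 ratio was 0.35. CDKN1A, the p21 inhibitor under p53, had 182 CPM in the cycling cells of CNT and 217 CPM in those of 3CK (log2 0.25, 0.11 to 0.39) and at 137 and 213 CPM in the cells under the threshold (0.64). CDKN1C was lower in 3CK in both groups, with log2 ratios of -2.87 (-3.11 to -2.64) in cycling cells and -2.40 in the others. CDKN2B, the p15 inhibitor of CDK4 and CDK6, stood at 5.53 and 18.3 CPM in cycling cells and at 24.0 and 54.4 CPM in the others, lower in the cycling cells in both libraries. KLF4, a factor of epithelial growth arrest, stood at 13.7 and 74.5 CPM in cycling cells (log2 2.44) and at 28.7 and 51.0 CPM in the others (0.83). Of the CNT cycling KLF4 UMIs 36.5% came from 1 cell, and without the highest cells its ratio was 2.97.

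CDKN2A, which encodes the p16 inhibitor and ARF, differed from its pattern in the other cells. For CDKN2A, cycling cells had 11.6 CPM in CNT (44 UMIs) and 10.6 CPM in 3CK (47 UMIs), a log2 ratio of -0.13 (-0.75 to 0.50). For CDKN2A, cells under the threshold had 7.58 and 43.0 CPM, a ratio of 2.51 (2.36 to 2.66). The 3CK cycling cells lay below the other 3CK cells, with a log2 ratio of -2.02 (-2.47 to -1.61), and the CNT cycling cells had a ratio of 0.61 (0.13 to 1.06) to the other CNT cells. Of the cycling CDKN2A UMIs, 1 cell held 34.1% in CNT and 1 cell held 19.1% in 3CK. Without the highest cells these ratios of cycling to other cells were -2.22 in 3CK and 0.15 in CNT, the ratio of 3CK to CNT in cycling cells was 0.17, and the ratio in cycling cells minus that in the others was -2.37. The counts are per gene and do not part the p16 and ARF transcripts. With 1 library per group, the difference between these ratios was not tested.

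**Figure D4:**
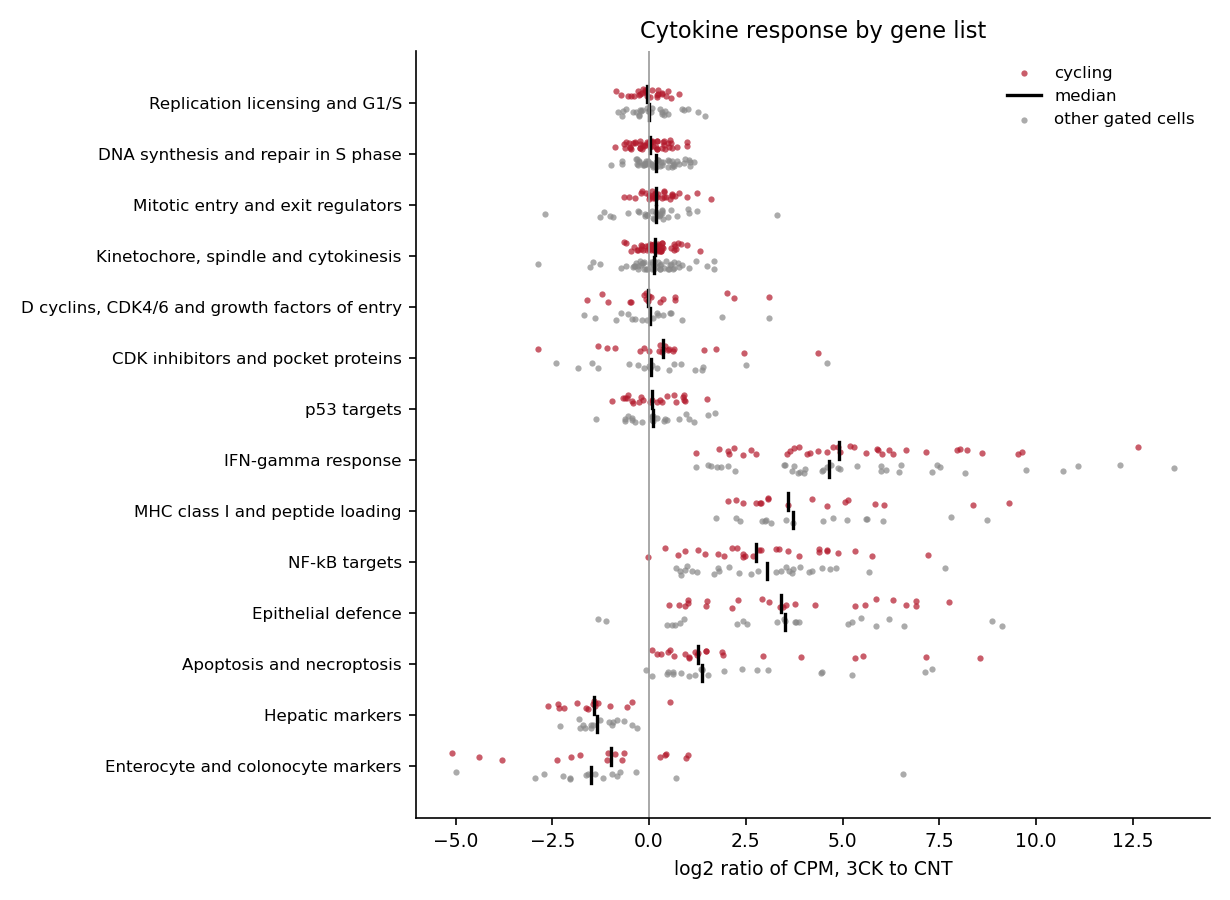
Log2 ratios of CPM, 3CK to CNT (x axis), for the genes of 14 lists, in cycling cells (red) and in other gated cells (grey); black bars are medians, and a gene at 0 UMIs is placed at a floor of 3 UMIs. Cycle lists centre near 0, with medians of -0.06 to 0.18 for the top 4, and the IFN-γ list centres at 4.92 in cycling and 4.65 in other cells.

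The cytokine-response genes were higher in the cycling cells of 3CK. At 50 CPM or more, 351 of 3597 genes (9.76%) were 2-fold higher in 3CK cycling cells and 195 (5.42%) were 2-fold lower. The balance depended on this minimum: at 10 CPM 870 were higher and 748 lower, and at 1 CPM 1937 were higher and 2760 lower. Of the 351 higher genes 297 (84.6%) were also 2-fold higher in the cells under the threshold, where they made up 80.9% of 367 genes. For lower genes, 133 of the 195 (68.2%) were also 2-fold lower in the other cells, and 153 of the 235 genes lower there (65.1%) were so in cycling cells. All 36 genes of the IFN-γ response list were 2-fold higher, from STAT3 at 1.22 to CXCL10 at 12.64, with a median of 4.92 in cycling and 4.65 in other cells. Of the 80 genes of the cycling contrast 1 passed 2-fold between the libraries.

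**Figure D5:**
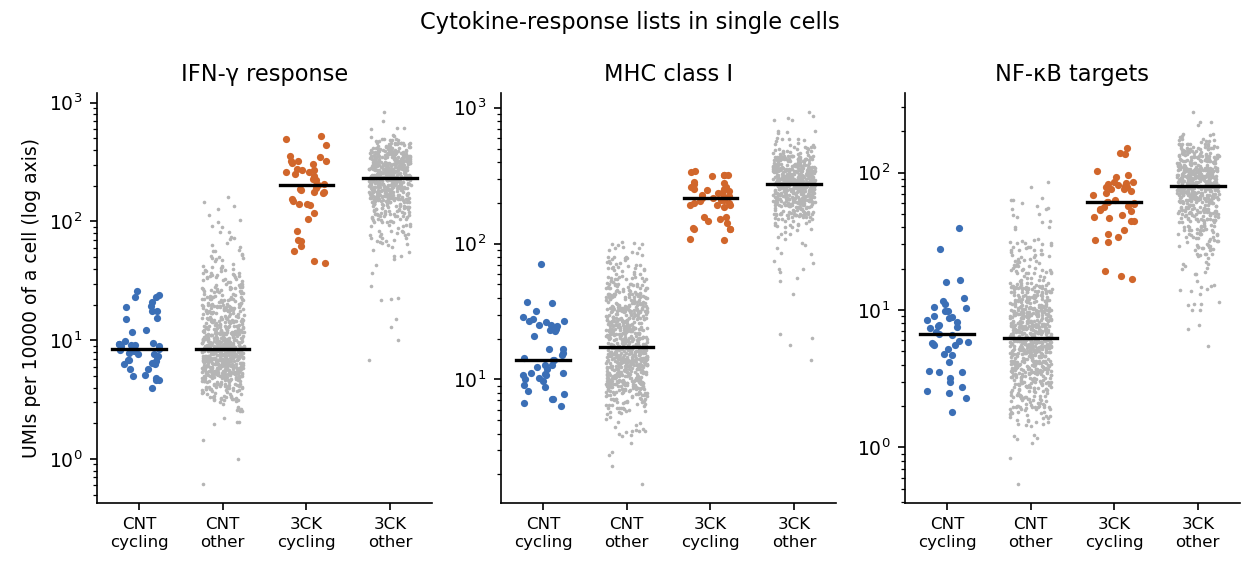
UMIs per 10000 of a cell (log axis) for the IFN-γ response, MHC class I and NF-κB target lists, with 1 point per cell and black bars at the medians, in cycling cells (coloured) and other gated cells (grey) of CNT and 3CK. The IFN-γ values of the 42 3CK cycling cells (45.03 to 524) all lie above those of the 43 CNT cycling cells (4.00 to 25.7).

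In every cycling cell of 3CK the IFN-γ response list summed higher than in any CNT cycling cell. The list summed to a median of 8.47 u (4.00 to 25.7) in the 43 CNT cycling cells and 203 u (45.03 to 524) in the 42 of 3CK, so the libraries did not overlap. The cells under the threshold had medians of 8.44 u and 233 u, with ranges that did overlap (0.614 to 162 and 6.80 to 834). Those ranges span 763 and 584 cells, and a range tends to widen with the number of cells. The overlap therefore cannot be set against its absence in the fewer cycling cells. CXCL10 rested on 1 UMI in CNT and 7427 in 3CK cycling cells, at 1676 CPM, a log2 ratio of 12.64 (10.16 to 17.94). In 3CK 1 cell held 23.9% of those UMIs, and without the highest cells the ratio was 10.62. GBP1 had 2 and 1868 UMIs, a ratio of 9.65 (7.79 to 12.69), and 10.54 without the highest cells. IDO1, the enzyme that breaks down tryptophan, had 0 UMIs in the CNT cells and 2589 (584 CPM) in the 3CK cells, a log2 ratio of at least 9.53 with the CNT group set to the floor of 3 UMIs. IFIT2, an antiviral protein, stood at 1.05 and 274 CPM, with 55.3% of the 3CK UMIs in 1 cell, and its ratio of 8.03 became 7.89 without the highest cells. IRF1, an interferon regulatory factor, stood at 17.1 and 353 CPM (4.37).

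Genes of antigen presentation by MHC class I were higher in the dividing cells too. All 17 genes of the list were 2-fold higher in 3CK, beside 11.1% of all genes at 1 CPM or more. Their median log2 ratio was 3.59 in cycling and 3.71 in other cells. The immunoproteasome subunit PSMB9 went from 4 UMIs in CNT to 2966 in 3CK cycling cells, at 1.05 and 669 CPM, a ratio of 9.31 (7.95 to 11.19), and 10.23 without the highest cells. B2M, the light chain, stood at 918 and 6829 CPM (2.90), and TAP1, the peptide transporter, at 9.21 and 528 CPM (5.84). Reads of the class I genes can be shared among near-identical copies. Per cell the list had a median of 13.98 u (6.35 to 71.2) in CNT and 218 u (106 to 345) in 3CK cycling cells, with no overlap. The other gated cells had higher medians, 17.4 u in CNT and 276 u in 3CK. MHC class II, which IFN-γ induces through CIITA in many cells, was uneven. HLA-DPB1, the most abundant gene of the list, stood at 26.3 and 107 CPM in cycling cells (log2 2.03, and 1.71 without the highest cells), against 0.19 in other cells. HLA-DRA had 0 UMIs in the cycling cells of both libraries, and CIITA had 1 UMI in CNT and 0 in 3CK. CD74, the invariant chain, stood at 13.9 and 88.7 CPM (log2 2.67). Of 6 measured class II genes 2 were 2-fold higher and 1 lower, beside 11.1% and 15.8% of all genes.

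NF-κB targets, which TNF-α and IL-1β switch on, were 2-fold higher in 24 of 28 genes, beside 11.1% of all genes at 1 CPM or more. The list had a median of 2.76 in cycling and 3.05 in other cells. Per cell the medians were 6.70 u (1.80 to 39.6) in CNT and 60.8 u (16.9 to 151) in 3CK cycling cells, and here the libraries overlapped. The other gated cells had medians of 6.25 u in CNT and 79.4 u in 3CK. CXCL5, a neutrophil chemokine, had the largest ratio at 7.21 (6.64 to 7.84), from 6.58 to 972 CPM, against 4.68 in the other cells. In CNT 1 cell held 56.0% of its 25 UMIs, and without the highest cells the ratio was 8.01. SOD2, the mitochondrial superoxide dismutase, stood at 61.8 and 750 CPM, and IL32 at 340 and 2441 CPM. The feedback inhibitors NFKBIA and TNFAIP3 stood at 29.2 and 130 CPM and at 5.79 and 58.9 CPM.

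Genes of defence and of cell death were higher as well. Epithelial defence genes were 2-fold higher in 21 of 24, beside 11.1% of all genes at 1 CPM or more, with a median of 3.42 (3.51 in other cells). LCN2, the siderophore binder used as a colitis marker, stood at 11.3 and 660 CPM (5.87, 5.43 to 6.34) and at 16.2 and 719 CPM in the other cells. In CNT 1 cell held 97.7% of the 43 cycling LCN2 UMIs, and without the highest cells the ratio was 10.94. SAA2, an acute-phase protein with a near-identical copy in SAA1, had a ratio of 7.76 (7.01 to 8.63), with 71.4% of its 14 CNT UMIs in 1 cell and 9.07 without the highest cells. The apoptosis and necroptosis list was 2-fold higher in 15 of 22 genes, median 1.26. CASP1, the inflammatory caspase, went from 1 UMI to 440 (99.3 CPM, ratio 8.56, 6.07 to 13.87), and 6.77 without the highest cells. TNFSF10, the death ligand TRAIL, stood at 6.58 and 305 CPM, MLKL, the pore former of necroptosis, at 1.05 and 16.02 CPM, and CASP8 at 12.6 and 47.4 CPM. BAK1, a pore former of mitochondria, stood at 27.9 and 78.1 CPM. Beside the same 11.1% of all genes, 3 of 16 genes of the unfolded protein response list were 2-fold higher, with a median of 0.30 (0.01 in other cells). These were DDIT3, the stress factor CHOP, at 27.1 and 79.9 CPM, TRIB3, its target, at 15.5 and 49.4 CPM, and CHAC1, a glutathione-degrading enzyme, at 1.32 and 43.3 CPM (log2 5.04, and 5.64 without the highest cells).

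Lower genes of 3CK cycling cells included hepatic, enterocyte, smooth muscle and fetal transcripts. The hepatic list was 2-fold lower in 13 of 16 genes and 2-fold higher in 0, beside 15.8% and 11.1% of all genes at 1 CPM or more. At 50 CPM or more, 5.42% of genes were lower and 9.76% higher. Its median was -1.43 in cycling and -1.36 in other cells. TTR had a log2 ratio of -2.60, from 54854 to 9058 CPM, against -1.70 in the other cells, and FGG, a fibrinogen chain, -2.35 against -1.50. AFP, the fetal serum protein, had -1.39 against -1.82. The enterocyte list was 2-fold lower in 8 of 16 genes and higher in 1, with a median of -0.97. Its lowest gene, the hormone guanylin GUCA2A, went from 29 UMIs to 1 (-5.08, and -2.55 without the highest cells). The smooth muscle list was 2-fold lower in 4 of 7 genes and higher in 1. Its median was -1.22 in cycling cells, with an interval from -3.12 to 0.46 that included 0, and -0.02 in other cells. Taken gene by gene, the ratio in cycling minus that in other cells had a median of only -0.058. The smooth muscle actin ACTG2 went from 50 UMIs to 2 (-4.87). H19, an imprinted fetal RNA, went from 158 to 4.74 CPM (-5.06). APELA, a peptide hormone of early embryos, went from 110 to 2.03 CPM (-5.76). MT1B, a metallothionein with near-identical copies, had the lowest ratio among genes of at least 50 CPM, -8.38, but all of its 860 CNT UMIs came from 1 cell and all 3 UMIs of 3CK from another. Free RNA as a source of these UMIs was not tested.

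Stem and progenitor genes were low and mixed. Of 21 measured intestinal stem and WNT target genes 5 were 2-fold higher and 3 lower, beside 11.1% and 15.8% of all genes at 1 CPM or more. The median of the list was -0.13. CD44, a hyaluronan receptor and WNT target, stood at 55.0 and 246 CPM (2.16), against 37.6 and 256 CPM in the other cells. SOX9, a crypt progenitor factor, stood at 16.8 and 37.2 CPM (1.14, 0.72 to 1.58). ASCL2, the stem cell factor, went from 1 UMI to 59 (5.66, 3.13 to 10.99), with a ratio of 4.73 in the other cells and 3.60 in cycling cells without the highest cells. OLFM4, a stem cell marker of the crypt, had 8 UMIs in 1 CNT cell and 2 UMIs in 1 3CK cell. Against the other cells, 3 of 21 were 2-fold higher in both libraries, beside 4.59% of all genes. Among the 3 was CDCA7, at 7.63 against 0.74 CPM in CNT and 7.00 against 1.07 CPM in 3CK.

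The ratio of 3CK to CNT differed 2-fold between cycling and other cells in few genes, and 1 cell held much of several of them. Of 3111 genes, 36 (1.16%) had a ratio 2-fold larger in cycling cells and 32 (1.03%) a ratio 2-fold smaller, with a median difference of -0.02. FABP1, the fatty acid binder of enterocytes, had a log2 ratio of 0.94 in cycling and -2.94 in other cells. In 3CK 1 cell held 72.0% of its UMIs, and without the highest cells the cycling ratio was -0.41. TFF1, a trefoil peptide, had 1.00 and -1.11, with 66.9% in 1 cell and -0.16 without the highest cells. MYBL2 stood at 184 and 117 CPM in cycling cells (-0.65) and at 51.2 and 7.90 CPM in the others (-2.69), with no cell above 12.5% of its cycling UMIs. On the other side, TGM2, a transglutaminase, had 2.65 in cycling and 4.31 in other cells, and EPHA2, an ephrin receptor, -0.09 and 1.34. EPHA2 stood at 68.9 and 64.8 CPM in cycling cells and at 31.2 and 78.8 CPM in the others, with no cell above 11.5% of its cycling UMIs.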

How the data were processed

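Single cells of 2 libraries, CNT and 3CK, were analysed from the deposited UMI counts per gene and barcode, which the authors made with Cell Ranger 7.1.0 on GRCh38, per the submitters' processing notes. Whether strand was used in counting is not given in the sources used here. The cells, gene lists and rules were chosen with earlier results of these data known. UMIs of the cells of each group were summed and divided by the group's total (CPM). Log2 ratios have exact binomial counting intervals, CPM Poisson intervals, shares Clopper-Pearson intervals and differences of shares Newcombe intervals, all at 95%. A gene counted as different at 2-fold, with at least 50 CPM in the higher sum, or 1 CPM for list members. A gene at 0 was set against a floor of 3 UMIs over the group. The ratio without the highest cells drops the cell with most UMIs of that gene from each group. Of 36601 features, 36366 IDs matched the reference table of gene names.

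Named genes were the 15 largest and 10 smallest ratios of cycling to other cells, the 15 largest and 15 smallest ratios of 3CK to CNT, the 8 largest and 8 smallest differences of these ratios, and of each list the most abundant gene and both extremes. Some genes that the rule selected are not reported here. Genes outside the rule (among them LCN2, CDX2, FOXM1, AURKA, TAP1, SOD2, NFKBIA, TNFAIP3, TNFSF10, MLKL, CASP8, BAK1, DDIT3, TRIB3, FGG, TYMSOS and the printed promoters of CKS2, CDT1 and MCM7) were chosen after their values were seen. Doublets were scored with Scrublet in scanpy 1.11.5 and the highest scores marked at 0.8% per 1000 barcodes, and they were kept. Other settings changed the thresholds, depth, doublets, scaling (TMM in edgeR 4.0.16 under R 4.3.3) and weights of cells. Scripts used Python 3.11.15, numpy 2.4.6, scipy 1.17.1 and pandas 2.3.3, and were tested on simulated data.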

Additional observations from a re-analysis of the deposited data

Results flagged for a closer look

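The 10 genes below had ratios of 3CK to CNT with opposite signs in cycling and other gated cells. With 1 library per group, none of these differences was tested. Log2 ratios in cycling and then other cells were 0.94 and -2.94 for FABP1, 0.80 and -3.08 for AC019117.1, 1.39 and -1.82 for ALDH1A1, 1.02 and -1.32 for TFF3, 0.68 and -1.59 for MMP1, and 1.002 and -1.11 for TFF1. They were -2.47 and 0.065 for TAGLN, -0.38 and 1.83 for MT1M, -0.38 and 1.43 for NPPB, and -0.59 and 0.74 for AL365226.2. In 3CK 1 cell held 72.0% of the cycling UMIs of FABP1, 60.9% of ALDH1A1 and 66.9% of TFF1. Without the highest cells their cycling ratios were -0.41, 0.31 and -0.16. For MT1M 1 CNT cell held 61.4%, and the ratio was 0.71 without the highest cells.

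Cycle genes also passed the threshold in barcodes of at least 10000 UMIs outside the epithelial gate, which the comparisons did not use. These were 109 of 668 in CNT (16.3%) and 56 of 383 in 3CK (14.6%).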

How the results depend on the processing

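No paired analysis was possible because each group is 1 library. Of 87 values recomputed under other settings, 10 moved beyond the counting interval or 1.5 times the reported value, and 8 had the opposite sign. No value of opposite sign belonged to a difference or median whose interval excluded 0. The S-phase share difference turned to 3.21 points at full depth and to 2.27 points in cells of low TTR. The DNA synthesis median was -0.081 with collagens under 2 UMIs per 10000 and -0.076 with equal weight of cells, where the kinetochore median was -0.024. With genes of at least 10 CPM, 345 genes were 2-fold higher in cycling cells of both libraries, 870 were higher and 748 lower in 3CK cycling cells, and 227 had a 2-fold larger ratio in cycling cells. At a cycle threshold of 4 UMIs per 10000 (26 CNT and 25 3CK cells), the difference in the share with more S-phase than mitotic UMIs was 20.3 points. The settings below were chosen after seeing the data. In cells with TTR under 100 UMIs per 10000 (12 CNT and 33 3CK cycling cells), the share difference was -2.50 points, 306 genes were lower in 3CK, 84 had a 2-fold larger ratio in cycling cells, and the medians of the IFN-γ and kinetochore lists were 4.46 and -0.25. The cause was not tested. Without the highest cell of each gene the 4 gene counts moved by less than 1.5 times, the IFN-γ and kinetochore medians were 5.06 and 0.15, and the DNA synthesis median went from 0.032 to 0.013. The 43 and 42 cells and 1 library per group limit every comparison, and genes of few UMIs carry wide intervals.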
